A study of Mus musculus with 18 samples.

Results

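The mitochondrial ribosomal proteins were followed across all 6 groups of B cells from WT and Sh3gl1-/- mice. The members were the protein-coding genes whose symbol begins with Mrpl or Mrps and a digit, outside 1 interval of chromosome 17 that the rule left out and that held 0 such genes. This gave 78 members among the 51912 genes of the table, 49 with an Mrpl and 29 with an Mrps symbol, on 17 chromosomes. Symbol and place in the particle do not always match: by the known structure of the mammalian ribosome 51 members belong to the large subunit (Mrps30 and Mrps18a among them) and 26 to the small subunit. Mrps36 is now known as a subunit of the 2-oxoglutarate dehydrogenase complex and was kept because the rule goes by symbol.

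Mitochondrial ribosomes translate the few proteins that the mitochondrial genome encodes, all of them core subunits of the respiratory chain or of ATP synthase. Their RNA is made inside the organelle, but every protein of the particle is encoded in the nucleus, made in the cytosol and imported, so that assembly draws on a large set of nuclear genes. Many of these proteins descend from bacterial ribosomal proteins, and others were added in the mitochondrial lineage. B cells that are stimulated to grow are known to enlarge their mitochondria and to raise oxidative metabolism.

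The study took B cells of C57BL/6 mice that lack Sh3gl1, the gene of endophilin A2, in every cell of the body, and of WT littermates, 3 mice of each genotype. Transitional cells and follicular cells were measured ex vivo, and follicular cells also after culture with CD40L, by which T cells activate B cells through CD40. The sample labels give 14 h for this culture, whereas the methods of the study give an overnight culture and its figure legends on these RNA data a longer time. The 6 groups were WT transitional, Sh3gl1-/- transitional, WT follicular, Sh3gl1-/- follicular, WT CD40L-cultured and Sh3gl1-/- CD40L-cultured cells, with 3 libraries each; neither an age nor a culture without CD40L was given in the labels, so the effect of CD40L and that of culture itself cannot be told apart.

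Sh3gl1 had between 377 and 929 counts in the 9 WT libraries and between 1 and 22 counts in the 9 Sh3gl1-/- libraries. Library totals ranged from 12404665 to 18366011 expected counts. All markers listed for B cells were present in every group, and the summed CPM (counts scaled to library size, here by TMM) of the markers of transitional cells was 874 to 1009 in WT transitional and 374 to 459 in WT follicular libraries. In Sh3gl1-/- libraries it was lower, 505 to 803 and 299 to 313 CPM. Of these markers only Cd24a was called between the genotypes by edgeR. It was lower in Sh3gl1-/- transitional (log2 fold change -0.87, adjusted p = 0.026) and follicular cells (-0.75, adjusted p = 0.0040). Markers of other cells moved with the groups. The 8 neutrophil markers summed to 62.6 to 168 CPM in WT and 173 to 770 CPM in Sh3gl1-/- follicular libraries, and to 9.72 to 39.9 and 49.1 to 182 CPM after culture. T-cell markers summed to 163 to 198 CPM in WT follicular and 67.0 to 103 CPM in WT cultured libraries, and erythroid markers to 1428 to 3852 and 5.52 to 358 CPM. The part of these cells in the results on ribosomal proteins was not tested, and in such bulk samples a change in the number of cells of a type and a change in RNA per cell cannot be told apart.

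For every promoter, 300 bases from 250 before to 50 after the start in the direction of the gene, 4 short motifs known from promoters of mitochondrial genes were looked for on both strands. These were the E-box CACGTG that Myc can bind, a site of the respiratory factor NRF1 (GCATGCGC), a site of ETS factors such as GABP (CCGGAAG), and a site of YY1 (AAGATGGCG). The letters of the 4 motifs do not overlap in the windows shown. Of the 78 members, 69 had an entry among the RefSeq promoters of GRCm38.p6. The windows below show the range from none of the motifs, in the member with the lowest adjusted p in WT cells after CD40L, to pairs of them, and capitals mark each match on either strand. Mrpl14 lay at chr17:45686099-45686398 on the plus strand, Mrpl17 at chr7:105811038-105811337 on the minus strand, Mrpl36 at chr13:73330759-73331058 on the plus strand and Mrps27 at chr13:99344536-99344835 on the plus strand.
Mrpl14: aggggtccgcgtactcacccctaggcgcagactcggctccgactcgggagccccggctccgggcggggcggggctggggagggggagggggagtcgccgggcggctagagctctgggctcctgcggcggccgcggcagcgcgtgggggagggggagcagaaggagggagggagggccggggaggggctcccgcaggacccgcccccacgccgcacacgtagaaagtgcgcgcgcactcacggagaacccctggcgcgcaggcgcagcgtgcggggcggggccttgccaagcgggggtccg
Mrpl17: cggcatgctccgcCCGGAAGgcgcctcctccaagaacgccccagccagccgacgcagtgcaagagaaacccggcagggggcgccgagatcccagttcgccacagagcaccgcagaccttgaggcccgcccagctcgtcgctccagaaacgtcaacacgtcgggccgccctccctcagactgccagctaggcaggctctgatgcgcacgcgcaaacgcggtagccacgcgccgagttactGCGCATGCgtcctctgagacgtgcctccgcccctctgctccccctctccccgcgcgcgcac
Mrpl36: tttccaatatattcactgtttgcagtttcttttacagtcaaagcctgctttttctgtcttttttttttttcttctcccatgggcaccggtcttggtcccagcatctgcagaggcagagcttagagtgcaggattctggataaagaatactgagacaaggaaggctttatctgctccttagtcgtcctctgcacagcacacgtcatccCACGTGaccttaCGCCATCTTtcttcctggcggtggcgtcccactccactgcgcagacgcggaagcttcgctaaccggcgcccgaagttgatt
Mrps27: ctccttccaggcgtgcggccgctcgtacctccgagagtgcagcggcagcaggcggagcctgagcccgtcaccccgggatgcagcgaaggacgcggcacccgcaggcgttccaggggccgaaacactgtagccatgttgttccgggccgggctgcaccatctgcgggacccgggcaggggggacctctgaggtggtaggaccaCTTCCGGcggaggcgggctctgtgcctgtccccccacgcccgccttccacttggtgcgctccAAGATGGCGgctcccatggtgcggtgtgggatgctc
Mrpl17 held an ETS and an NRF1 motif, Mrpl36 an E-box and a YY1 motif, and Mrps27 an ETS and a YY1 motif.

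The ETS motif was found in 26 of the 69 member promoters (37.7%), against 12.9% of the promoters of 17491 protein-coding genes and 8.86% of all 32851 promoters. The YY1 motif was found in 8 members (11.6%), against 2.14% and 1.40%, and the NRF1 motif also in 8 members (11.6%), against 3.93% and 2.71%. The E-box was found in 5 members (7.25%), against 8.91% and 7.15%. In the 100 bases around the start the ETS motif was in 29.0% of members and 8.01% of protein-coding genes, YY1 in 10.1% and 1.48%, NRF1 in 8.70% and 2.02%, and the E-box in 2.90% and 3.75%. The median GC content of the member promoters was 58.7%, against 56.3% for protein-coding genes. Of the 69 members, 9 held at least 2 of the motifs and 31 held none. A match is a run of letters and was not tested as a site.

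**Figure D1:**
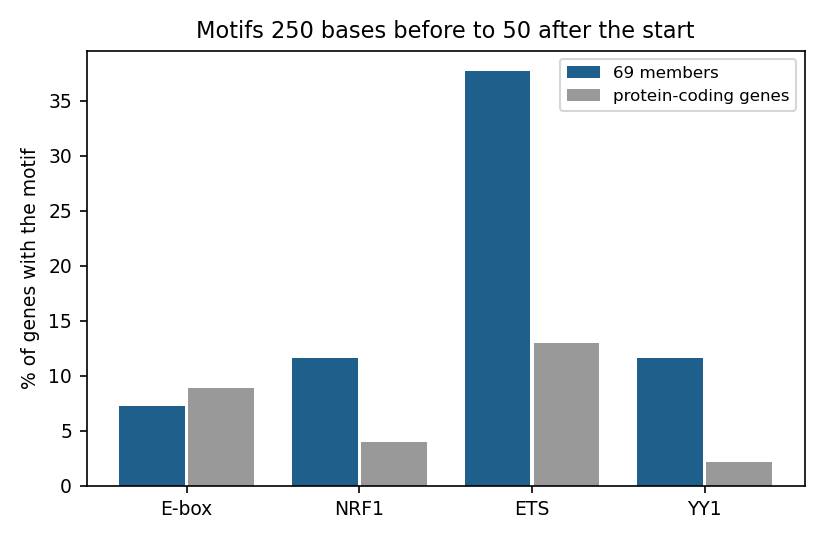
Share of promoters (percent, y axis) that hold each of 4 motifs (x axis), for the 69 members with a promoter and for 17491 protein-coding genes, in the window of 300 bases. The bars of the members stand above those of all protein-coding genes for the ETS, NRF1 and YY1 motifs (37.7% against 12.9%, 11.6% against 3.93% and 11.6% against 2.14%) and below for the E-box (7.25% against 8.91%).

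The members also share a gene arrangement. For 33 of the 78 (42.3%), a protein-coding gene on the opposite strand started within 1000 bp of the member's own start, against 2369 of 21793 protein-coding genes (10.9%). These starts are the outermost ones of each gene in GENCODE, whereas the promoter windows above use RefSeq starts. Of the 69 members with both, 50 had them within 100 bp of each other (median 18 bp) and 4 over 1000 bp apart, namely Mrpl33, Mrpl35, Mrpl36 and Mrps24, so that the window shown for Mrpl36 lies 2496 bp from its GENCODE start. Of 30 members with a partner and both starts, 29 kept a partner by the RefSeq start, Mrpl36 being the exception. The closest GENCODE starts were 26 bp apart and the median was 128 bp. Mrps27 and Ptcd2 started 81 bp apart. Mrpl46 and Mrps11, 1 protein of each subunit, started 412 bp apart on opposite strands, and their exons overlap. In all, 28 members overlap an exon of another gene on the opposite strand and 8 on the same strand. The labels name a stranded KAPA kit, whereas the methods of the study name SMART-Seq HT and Nextera XT, and whether reads were counted by strand is not given in the sources used here, so reads of such a pair may not be told apart.

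Between members, levels spanned a wide range in every group. The SD of the log2 TPM (the authors' share of transcripts, a level per length) between members was 1.44 to 1.61, and the median member had 64.1 TPM in WT follicular cells. Mrps21 (328 TPM as the mean over 18 libraries), Mrps14 (304 TPM) and Mrpl17 (294 TPM) stood highest, and Mrps26 (6.43 TPM), Mrps24 (4.07 TPM) and Mrps30 (2.82 TPM) lowest. Every member was read in all 18 libraries, the lowest value being 13 counts for Mrps24. Mrps24 shares exon sequence on the same strand with Urgcp, whose CPM was 411% of that of Mrps24 in WT follicular cells, so the level of Mrps24 is uncertain. Within groups the median residual SD of log2 CPM was 0.13 for the members, against 0.29 over 15117 genes, which were not matched to the members for level. Among members it was 0.12, 0.07 and 0.14 for Mrps21, Mrps14 and Mrpl17, and 0.25, 0.46 and 0.44 for Mrps26, Mrps24 and Mrps30.

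The first comparison asks how follicular WT cells differ after culture with CD40L. The summed TPM of the 78 members was 6235, 6186 and 6063 in the WT follicular libraries and 9258, 9229 and 9821 in the cultured ones, which is 6162 ± 88.4 and 9436 ± 334 (SD, n = 3) and a 1.53-fold increase. The groups do not overlap. On the CPM scale, which uses TMM-scaled library sizes and sums counts without regard to length, the ratio was 1.75. Of the unscaled counts, 0.427% to 0.437% fell to members in WT follicular and 0.647% to 0.685% in WT cultured libraries. TPM and CPM thus differ in scaling as well as in length. With edgeR (quasi-likelihood F test, Benjamini-Hochberg adjustment over 14460 genes), 67 of 78 members were higher after CD40L and 0 lower at an adjusted p under 0.05. Among all genes 49.3% were called, 23.6% higher and 25.7% lower. The median log2 fold change of the members was 0.72 and that of all genes -0.08. Of the called members, 12 rose by 1 or more on the log2 scale and 50 by between 0.5 and 1. All cultured libraries lay above all follicular ones for 66 members and below for 1, where 26.9% and 29.6% of all genes did so.

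**Figure D2:**
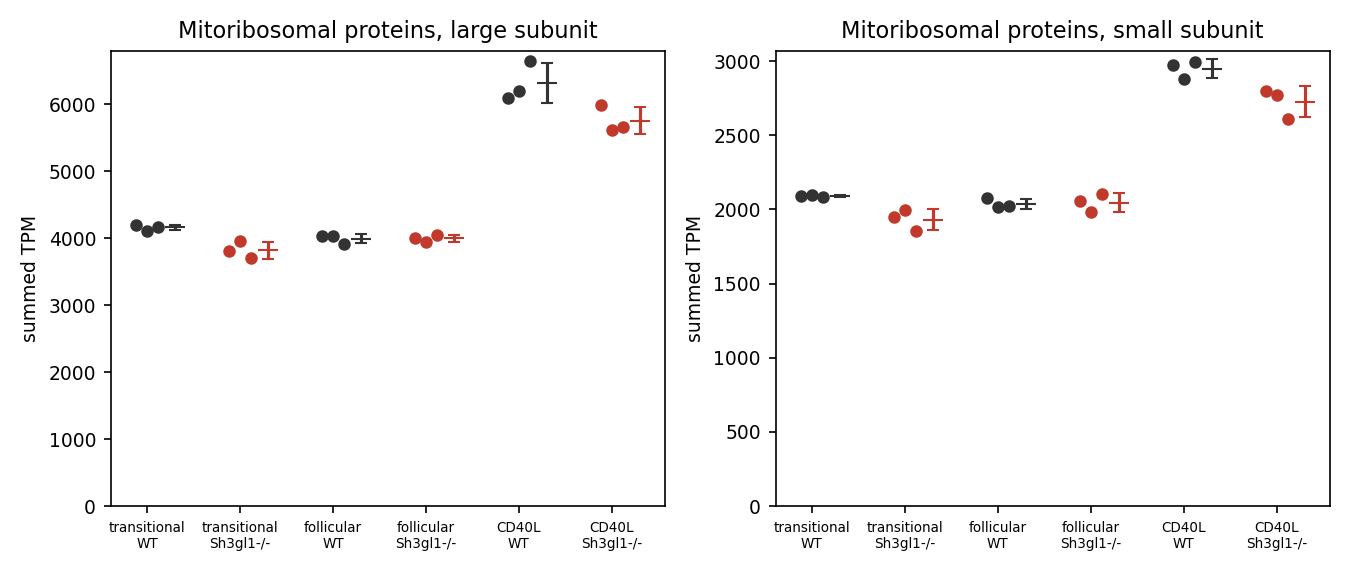
Summed TPM (y axes, from 0) of the 51 large-subunit members (left) and the 26 small-subunit members (right) in each of the 18 libraries by group (x axes), WT in black and Sh3gl1-/- in red, with a bar for the mean and SD of 3. Large-subunit sums lie at 3702 to 4203 ex vivo, at 6098 to 6655 in cultured WT and at 5620 to 5987 in cultured Sh3gl1-/- libraries, and small-subunit sums at 1853 to 2104, 2878 to 2994 and 2609 to 2797.

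Of the 5 members with the lowest adjusted p among those whose groups lay apart, 4 belong to the large subunit. Mrpl14 (ENSMUSG00000023939, GRCm38 chromosome 17, 45686322 to 45698495), a protein of the interface between the subunits, had 35.4, 32.2 and 33.6 CPM in the WT follicular libraries and 104, 105 and 99.1 CPM after CD40L. The groups were far apart, and edgeR gave a log2 difference of 1.58, SE 0.10, adjusted p = 4.5e-08. Mrpl45 (ENSMUSG00000018882, GRCm38 chromosome 11, 97315716 to 97329920), which lies at the exit of the peptide tunnel and holds the ribosome at the inner membrane, went from 64.3, 79.2 and 64.0 to 224, 192 and 227 CPM (1.60, SE 0.12, adjusted p = 1.4e-07). Every cultured library was above every follicular one. Mrpl17 (ENSMUSG00000030879, GRCm38 chromosome 7, 105803206 to 105811099), near the exit of the tunnel, had 87.1, 80.9 and 74.1 CPM ex vivo and 208, 199.8 and 249 CPM after CD40L (1.41, SE 0.12, adjusted p = 5.0e-07). Mrpl39, a protein of the large subunit without a bacterial relative, rose more modestly, from 40.7, 44.4 and 47.7 to 84.8, 86.1 and 93.3 CPM (0.97, SE 0.10, adjusted p = 4.5e-06). For single genes a two-sided exact permutation test of 3 libraries against 3 cannot go below 0.1, and each of these members reached 0.1.

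Of the stalk that recruits translation factors to the large subunit, all 3 proteins rose in WT cells. Mrpl12, which forms the flexible stalk and also binds the mitochondrial RNA polymerase, had 54.9, 59.7 and 42.5 CPM ex vivo and 109, 177 and 187 CPM after CD40L (1.56 on the log2 scale). Its cultured libraries spread widely, and the lowest of them was still above the highest follicular one. Mrpl10 and Mrpl11, at the base of the stalk, rose by 0.47 and 0.77. Mrpl24 at the tunnel exit rose by 0.61, Mrpl58, which releases peptides from stalled ribosomes, by 0.70, and Mrpl36, a very small protein of the large subunit, by 0.71. Mrpl44, which has the fold of a ribonuclease, rose by 0.33 (adjusted p = 0.048 by edgeR). In a fit with a block for the replicate number its adjusted p by edgeR was 0.068, with a block for each number within a genotype it was 0.10, and the call was lost without WT follicular replicate 2 or 3, WT cultured replicate 2 or 3, Sh3gl1-/- follicular replicate 1 or 3, or Sh3gl1-/- cultured replicate 1 (adjusted p up to 0.2).

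Mrpl23 at the tunnel exit needs care. It was called higher (0.62, SE 0.21, adjusted p = 0.026 by edgeR), from 13.5, 9.75 and 11.2 to 24.1, 14.97 and 15.04 CPM, but the table also lists Mrpl23-ps1, a processed pseudogene with the same kind of sequence, which held 1154 to 3017 counts where Mrpl23 held 83 to 350. Only 8.62% to 10.1% of the CPM of the pair was given to Mrpl23, and how the reads were divided between the copies is uncertain. Without WT follicular replicate 2 or 3, or WT cultured replicate 1, Mrpl23 was no longer called (adjusted p up to 0.16 by edgeR).

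In the small subunit 21 of 26 members rose, against 45 of 51 in the large subunit, with medians of 0.66 and 0.72 on the log2 scale. Mrps7 (ENSMUSG00000046756, GRCm38 chromosome 11, 115603925 to 115608036), whose bacterial relative starts the assembly of the head of the particle, went from 60.8, 62.8 and 68.0 to 125, 139 and 153 CPM (1.10, SE 0.11, adjusted p = 2.6e-06 by edgeR). All cultured libraries lay above all follicular ones. On the opposite strand Mrps7 overlaps exons of Mif4gd and Gga3, at 586% and 58.2% of its CPM in WT follicular cells. Its level is uncertain if reads were not counted by strand. Mrps14, the most strongly expressed small-subunit member after Mrps21, rose from 184, 184 and 182 to 308, 267 and 279 CPM (0.61), and Mrps12 of the decoding centre rose by 0.76. Mrps27, which has repeats of the kind that bind RNA and no bacterial relative, rose by 1.47, and Mrps28 and Mrps22 rose by 1.20 and 1.34. Mrps2 rose by 0.75 with overlapping groups (adjusted p = 0.045 by edgeR). Its adjusted p by edgeR was 0.059 with a block for each replicate number within a genotype, and the call was lost without any 1 of the 7 libraries named for Mrpl44 (adjusted p up to 0.17).

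The 3 members of the S18 family hold different places: Mrps18c is the small-subunit protein at the bacterial position, Mrps18b is another small-subunit protein, and Mrps18a sits in the large subunit. Their responses in WT cells were 0.76, 0.66 and 0.72 on the log2 scale, with SEs between 0.10 and 0.12. Whether these responses differ was not tested. Mrps36, the subunit of the dehydrogenase, rose by 0.66, from 57.1, 59.5 and 56.5 to 100.3, 80.1 and 97.7 CPM.

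By descent, 45 of 48 members with a bacterial relative and 21 of 29 members without one rose in WT cells, with medians of 0.73 and 0.72. The largest response was that of Mrps6 (chosen after its values were seen), with 4.27, 5.31 and 3.68 CPM ex vivo and 15.4, 19.8 and 22.1 CPM after CD40L (2.08). Mrps6 shares exon sequence on the same strand with Slc5a3, whose CPM was 297% of its own in WT follicular cells, so its value is uncertain. The 11 members not called were Mrpl3, Mrpl38, Mrpl43, Mrpl54, Mrpl57, Mrps15, Mrps24, Mrps26, Mrps30, Mrps34 and Mrps35. Of these Mrpl38 (adjusted p = 0.06 by edgeR) was called higher with the replicate number as a block (adjusted p = 0.024) and with a block within genotype (adjusted p = 0.033). Mrpl43 had 52.7, 52.4 and 51.0 CPM ex vivo and 65.7, 53.9 and 60.5 CPM after CD40L (0.18), a small difference in groups that do not overlap. Mrps34, an RNA-binding protein of the small subunit, had 13.3, 10.7 and 11.1 and 9.24, 7.82 and 9.91 CPM (-0.41, adjusted p = 0.14 by edgeR) and was the 1 member whose cultured WT libraries all lay below the follicular ones. It overlaps exons of Nme3 on the same strand and of Mapk8ip3 on the opposite strand, at 158% and 261% of its CPM in WT follicular cells. Both partners were called lower after CD40L in WT cells (-0.47, adjusted p = 0.030, and -0.79, adjusted p = 7.2e-04 by edgeR). The value of Mrps34 is therefore uncertain, and the part of these partners in it was not tested. Mrpl3, Mrps26 and Mrps30 gave 0.18, -0.15 and 0.40 at levels of 2.75 to 15.5 CPM in these libraries, and Mrpl57 gave -0.15.

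**Figure D3:**
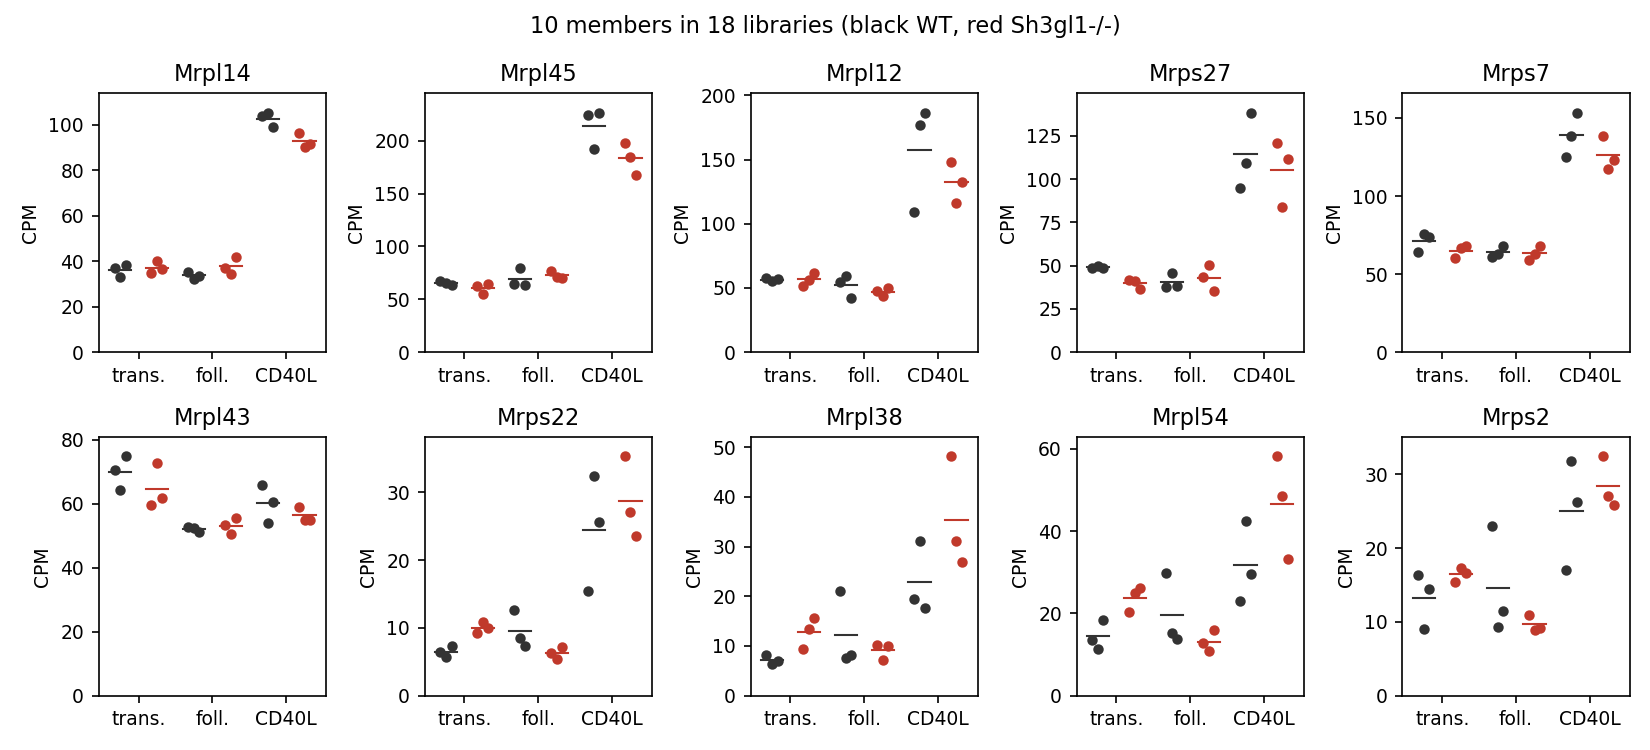
CPM (y axes, from 0, one scale per panel) of 10 members in transitional, follicular and CD40L-cultured libraries (x axes), WT in black and Sh3gl1-/- in red, with points for libraries and a line for the mean of 3. Mrpl14, Mrpl45, Mrpl12, Mrps27 and Mrps7 separate cultured from ex vivo libraries in both genotypes, Mrpl43 does not, and the libraries of Mrps22, Mrpl38, Mrpl54 and Mrps2 (picked after their values were seen) spread within groups.

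The same comparison in Sh3gl1-/- cells sets 6 other libraries against each other. Its tests come from the same fit over 12 libraries as those in WT cells, with 1 shared estimate of the spread, and are not independent of them. Summed TPM was 6185, 6043 and 6297 ex vivo and 8960, 8577 and 8433 after CD40L, or 6175 ± 127 and 8657 ± 272 (SD, n = 3), a 1.40-fold increase (1.47-fold in CPM). In edgeR's test 60 of 78 members were higher and 0 lower, where 42.4% of all genes were called, 20.6% higher and 21.8% lower. Groups lay apart for 64 members with the cultured libraries above and for 0 below, where 26.2% and 27.0% of all genes did so. The members' median was 0.49 and that of all genes -0.03. The large subunit gave 39 of 51 and the small subunit 20 of 26. Mrpl14 went from 37.2, 34.3 and 41.8 to 96.4, 90.3 and 91.7 CPM (1.28, SE 0.10, adjusted p = 3.6e-07 by edgeR), Mrpl45 rose by 1.32, Mrps7 by 0.97, Mrpl12 by 1.47 and Mrps22 by 2.16. In each of these, every cultured library was above every follicular one. Mrpl17 had 86.6, 91.2 and 104 CPM ex vivo and 187, 163 and 162 CPM after CD40L (0.84, SE 0.12, adjusted p = 6.6e-05 by edgeR). Of the other members listed by role, Mrpl11 (0.62), Mrpl36 (0.58), Mrps27 (1.27), Mrps28 (0.85) and Mrps2 (1.54) rose, as did Mrpl58, Mrps14, Mrps18a and Mrps36, by between 0.38 and 0.48. Mrps6, which was chosen after its values were seen and overlaps Slc5a3 as given above, rose by 1.89. Mrpl10, Mrpl24, Mrps12, Mrps18b and Mrps18c rose by between 0.32 and 0.39, but each lost its call without any 1 of 1 to 4 of the Sh3gl1-/- follicular libraries and cultured replicates 1 and 2 (adjusted p up to 0.13 by edgeR, for Mrps18c). Values not past the threshold were 0.02 for Mrpl23, 0.17 for Mrpl44, 0.51 for Mrpl57, -0.02 for Mrpl3, 0.16 for Mrps30 and -0.55 for Mrps34. DESeq2 called Mrps34, which overlaps Nme3 and Mapk8ip3 as given above, lower in Sh3gl1-/- cells after CD40L (adjusted p = 0.042).

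Between the genotypes, 57 members were called higher after CD40L in both, 10 in WT cells alone, 3 in Sh3gl1-/- cells alone and 8 in neither. The 10 were Mrpl1, Mrpl9, Mrpl18, Mrpl22, Mrpl23, Mrpl30, Mrpl44, Mrpl53, Mrps16 and Mrps23, and the 3 were Mrpl38, Mrpl54 and Mrps15. With a replicate block Mrpl38 was called in both genotypes, and with a block within genotype Mrps15 was called in neither. Passing the threshold in 1 genotype does not show a difference, and the test of the difference itself called 0 of 78 members and 0% of all 14460 genes in edgeR, with DESeq2 also at 0 members. The estimated response was smaller in Sh3gl1-/- cells for 67 members and larger for 11, with a median difference of -0.23 on the log2 scale against 0.01 over all genes (-0.13 against 0.11 with library totals in place of TMM). At an unadjusted p under 0.05, 12 members had a smaller and 2 a larger response, where 638 and 640 of the 14460 genes tested did. The members with the lowest p were Mrpl17 (-0.57, SE 0.17, adjusted p = 0.46 by edgeR) and Mrps11 (-0.54) on the lower side, and Mrpl54 (1.14) and Mrps22 (0.83) on the higher side. For Mrpl12 the 2 responses of 1.56 and 1.47 differed by -0.09 (SE 0.26). The neutrophil markers given above, which are higher in Sh3gl1-/- libraries in both states, were not tested for a part in this difference.

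**Figure D4:**
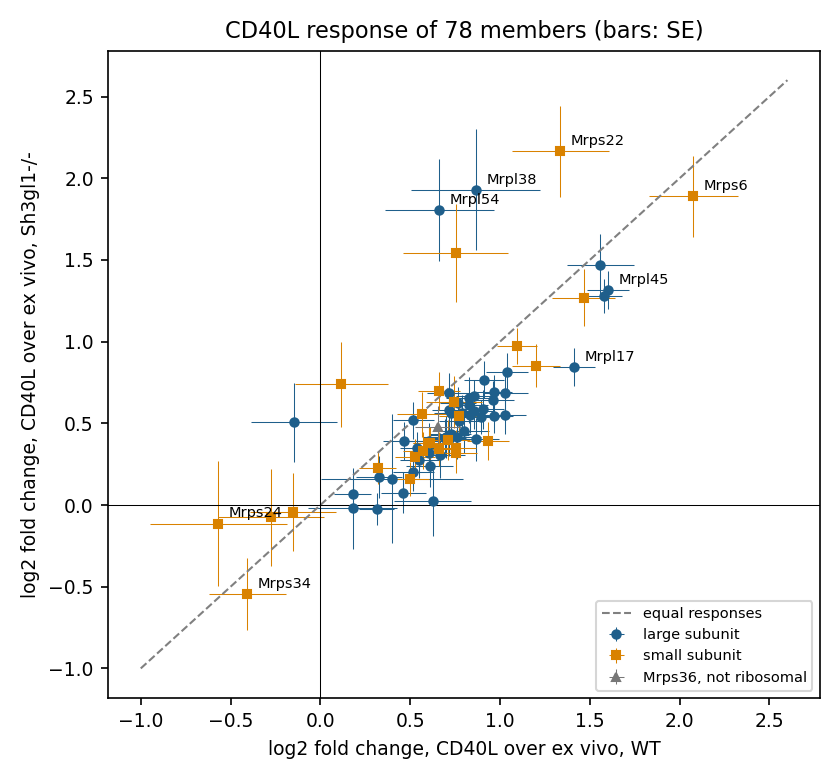
Log2 fold change after CD40L in WT cells (x axis) against that in Sh3gl1-/- cells (y axis) for the 78 members, by subunit, with bars for the SE and a dashed line of equal responses. Of the points, 67 lie below the line and 11 above it, and no member passed the test of the difference.

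Other genes of the pathway moved less evenly in WT cells, where 23.6% of all genes were called higher and 25.7% lower. Of 5 mitoribosomal proteins with other symbols, 4 rose and 0 fell (median 0.62), among them Dap3 (0.81), Chchd1 (0.65) and Ptcd3 (0.62). Of 14 mitochondrial translation factors, 5 rose and 1 fell (median 0.29), led by the elongation factor Tufm (1.75), its exchange factor Tsfm (1.01) and the recycling factor Mrrf (1.05). Of 20 aminoacyl-tRNA synthetases and related enzymes, 6 rose and 1 fell (median 0.32), including Gatb (1.296), Tars2 (0.90) and Rars2 (0.85). Of 27 assembly factors, 5 rose and 2 fell (median 0.26), with the RNA methyltransferases Mrm3 (1.33) and Nsun4 (0.62) and the RNA-binding Fastkd2 (1.09) among those that rose. In Sh3gl1-/- cells the same lists gave 2 of 5, 5 of 14, 6 of 20 and 5 of 27 higher, and 0, 0, 1 and 1 lower, where 20.6% of all genes were called higher and 21.8% lower. For the assembly factors this is 18.5% higher in either genotype, below the share over all genes.

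Of the mRNAs that these ribosomes translate, most were lower after CD40L. Of 13 mitochondrially encoded mRNAs, 7 fell and 1 rose in WT cells (median -0.65 on the log2 scale), and 5 fell and 0 rose in Sh3gl1-/- cells (median -0.53). The lowest p among those that fell were those of mt-Cytb (-0.98), mt-Co1 (-0.79) and mt-Atp8 (-0.65). Mt-Co3 was the 1 that rose, by 0.87, and was named after its value was seen. In summed TPM the mitochondrially encoded mRNAs of the cultured libraries were at 0.606 of the follicular level in WT and 0.702 in Sh3gl1-/- cells, while the members were at 1.53 and 1.40. Of 6 genes of mitochondrial transcription and mRNA upkeep, 3 rose, Slirp (1.16), Lrpprc (0.82) and Tefm (0.65), and 1 fell, Tfam (-0.50), the factor that packages mitochondrial DNA. In Sh3gl1-/- cells 2 of these rose and 1 fell.

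Of 79 nuclear subunits of the respiratory chain, 68 rose and 0 fell in WT cells (median 0.72), and 57 rose and 1 fell in Sh3gl1-/- cells (median 0.49). Of 81 cytosolic ribosomal proteins, 72 rose and 1 fell in WT cells (median 0.69), and 45 rose and 2 fell in Sh3gl1-/- cells (median 0.34). Per length the cytosolic proteins gained less than the members, 1.31-fold and 1.13-fold in summed TPM. Of 9 regulators known to act on mitochondrial genes, 3 rose in WT cells, Myc (1.09), Gabpb1 (0.84), a partner subunit of GABP, and Pprc1 (0.63), a coactivator. The 2 that fell were the coactivators Ppargc1a (-1.46) and Ppargc1b (-1.03). In Sh3gl1-/- cells 1 of the 9 rose and 3 fell.

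**Figure D5:**
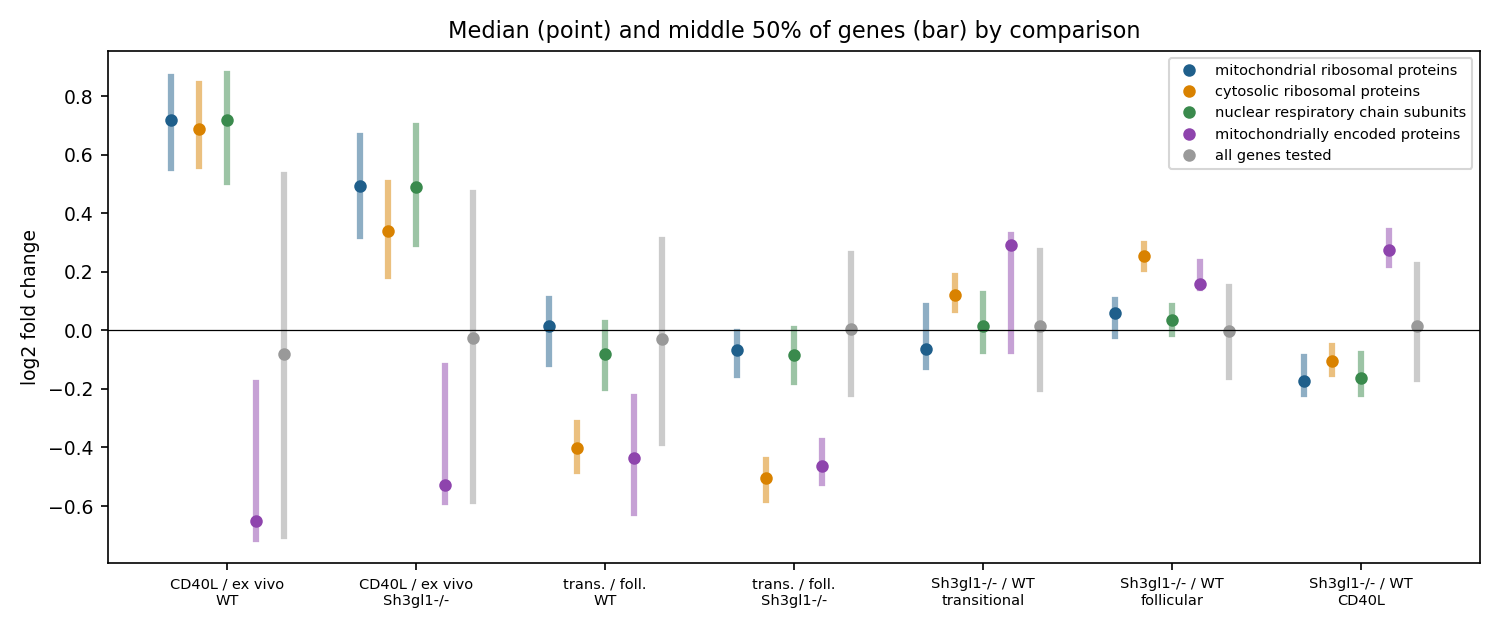
Median log2 fold change (points, y axis) and the range from the first to the third quartile over genes (bars) in 7 comparisons (x axis), for the members, the cytosolic ribosomal proteins, the nuclear respiratory chain subunits, the mitochondrially encoded mRNAs and all genes tested. After CD40L in WT cells the members (0.72), the respiratory chain subunits (0.72) and the cytosolic ribosomal proteins (0.69) lie above all genes (-0.08), and the mitochondrially encoded mRNAs (-0.65) below.

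The responses in WT cells were then set beside the promoter features shown above. The median log2 fold change was 0.70 for the 26 members with the ETS motif and 0.72 for the 43 without it, and 0.72 both for the 38 members with any of the 4 motifs and for the 31 with none. The 8 members with YY1 had a median of 0.86 and the 8 with NRF1 0.64. All 5 members with an E-box (Mrpl2, Mrpl20, Mrpl36, Mrpl37 and Mrps18c) rose, by 0.71 to 1.04, with a median of 0.85 against 0.71 in the 64 without it. In Sh3gl1-/- cells the 26 members with the ETS motif had a median of 0.38, with 17 called higher, and the 43 without it 0.55, with 36 called. The 38 members with any of the 4 motifs had a median of 0.41, with 27 called, and the 31 with none 0.55, with 26 called. For the E-box the medians with and without it were 0.58 and 0.43, for NRF1 0.42 and 0.48 and for YY1 0.56 and 0.44. These medians are descriptions of few genes, and no difference between them was tested. Of the 31 different partners with a start within 1000 bp that were not members themselves, 28 were tested, and 14 were higher, 2 lower and 12 not past the threshold, with a median of 0.50. Of 33 members with such a partner 28 rose, and of the 45 without one 39 rose.

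The second question is whether loss of endophilin A2 goes with other levels of these genes within a cell state. In follicular cells ex vivo it did not reach the threshold for any member. Summed TPM was 6162 ± 88.4 in WT and 6175 ± 127 in Sh3gl1-/- cells (SD, n = 3), and the libraries overlap. EdgeR called 0 of 78 members, where 0.845% of 13610 genes were called (0.485% higher and 0.36% lower), and DESeq2 called 0 as well. The median log2 fold change of Sh3gl1-/- against WT cells was 0.06, against -0.0029 over all genes, and 1 member was higher and 1 lower at an unadjusted p under 0.05. Together these are 2.56% of members, where 10.9% of all genes reached that p. The groups of 8 members lay apart with Sh3gl1-/- higher, and of 2 with Sh3gl1-/- lower, or 10 of 78 where 8.07% and 7.98% of all genes did so. Mrps11 (0.34, SE 0.12, adjusted p = 0.3 by edgeR) had 29.9, 23.9 and 30.1 CPM in WT and 36.3, 34.2 and 35.6 CPM in Sh3gl1-/- cells. Mrpl52 gave 0.29, Mrps22 -0.59 and Mrpl54 -0.58, none of them past the threshold. The cytosolic ribosomal proteins gave a median of 0.25 with 0 of 81 called and 64 higher at an unadjusted p under 0.05. In the same libraries the 7 T-cell markers summed to 163 to 198 CPM in WT and 248 to 296 CPM in Sh3gl1-/- cells, without overlap, and Cd3e (log2 fold change 1.37, adjusted p = 0.0040 by edgeR) and Cd3d (0.87, adjusted p = 0.0497) passed the threshold. The erythroid markers summed to 1428 to 3852 and 2989 to 9324 CPM. The part of these cells was not tested.

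After CD40L the member values in Sh3gl1-/- cells were lower by a small amount that no single gene carried past the threshold. Summed TPM was 9436 ± 334 in WT and 8657 ± 272 in Sh3gl1-/- cells (SD, n = 3), with the highest Sh3gl1-/- library at 8960 and the lowest WT library at 9229. EdgeR and DESeq2 called 0 of 78 members, where edgeR called 0.0227% of 13188 genes. The log2 fold change was below 0 for 68 members, with a median of -0.17 against 0.01 over all genes, and 6 members were lower and 2 higher at an unadjusted p under 0.05. Together these are 10.3% of members, where 7.07% of all genes reached that p. For 29 members all Sh3gl1-/- libraries lay below all WT libraries, and for 0 above, where 7.62% and 6.21% of all genes did so. Among them Mrpl1 had 72.2, 73.3 and 86.0 CPM in WT and 61.3, 61.9 and 58.8 CPM in Sh3gl1-/- cells (-0.32, SE 0.12, adjusted p = 0.67 by edgeR). Mrpl17 gave -0.33, Mrpl38 0.66 and Mrpl54 0.58. The 79 respiratory chain subunits also had 29 without overlap on the lower side and 63 values below 0, and the cytosolic ribosomal proteins 8 and 72 of 81.

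In transitional cells summed TPM was 6433, 6357 and 6393 in WT and 5885, 6085 and 5680 in Sh3gl1-/- libraries, or 6394 ± 37.98 and 5883 ± 203 (SD, n = 3). The groups do not overlap. EdgeR called 0 of 78 members and 3.73% of 13774 genes (1.26% higher and 2.48% lower). DESeq2 called 4 members, and its share over all genes is not given here. At an unadjusted p under 0.05 by edgeR, 6 members were lower and 5 higher. Together these are 14.1% of members, where 21.8% of all genes reached that p. The median was -0.07 against 0.02 over all genes. Groups lay apart for 16 members on the lower and 7 on the higher side, where 14.4% and 13.6% of all genes did so. The member nearest to the threshold was Mrpl28 (-0.36, SE 0.08, adjusted p = 0.051 by edgeR), with 103, 95.6 and 106 CPM in WT and 76.6, 80.7 and 80.6 CPM in Sh3gl1-/- cells. Mrpl19 gave -0.38 (adjusted p = 0.061 by edgeR). On the other side Mrpl38 gave 0.83 and Mrpl54 0.72, with adjusted p = 0.077 and 0.072 by edgeR. Without WT transitional replicate 3, Mrpl54 alone was called. In these libraries the neutrophil markers summed to 49.4 to 93.1 CPM in WT and 112 to 547 CPM in Sh3gl1-/- cells, and markers of plasma cells to 492 to 719 and 1146 to 4593 CPM; their part was not tested.

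The last comparison sets transitional against follicular cells, the step in which immature B cells enter the follicle. It shares its follicular libraries with the comparisons above. In WT cells the members as a whole stayed near 0, with a median of 0.02 against -0.03 over all genes. EdgeR called 4 members higher and 3 lower in transitional cells, where 25.9% of 14580 genes were called, 14.2% higher and 11.7% lower. Groups lay apart for 14 members on the higher and 10 on the lower side, where 20.9% and 19.9% of all genes did so. Mrpl49 (ENSMUSG00000007338, GRCm38 chromosome 19, 6053622 to 6057785), a large-subunit protein without a bacterial relative, had 91.4, 76.3 and 86.9 CPM in transitional and 47.3, 59.6 and 57.7 CPM in follicular WT libraries (0.62, SE 0.10, adjusted p = 6.4e-04 by edgeR). It overlaps an exon of Syvn1 on the opposite strand, at 150% of its CPM in WT follicular cells, so its level is uncertain if reads were not counted by strand. Mrpl28 was higher by 0.41, Mrps11, at the platform of the small subunit, by 0.52 and Mrpl43 by 0.42. All transitional libraries lay above all follicular ones for these genes. Markers of other cells differed in the same libraries. The 6 markers of monocytes and macrophages summed to 447 to 551 CPM in transitional and 112 to 151 CPM in follicular WT libraries, and all 6 passed the threshold, Csf1r with a log2 fold change of 3.05 (adjusted p = 3.5e-06 by edgeR). The 4 plasma-cell markers summed to 492 to 719 and 110 to 180 CPM, with 1 of the 4 past the threshold, Jchain (log2 fold change 2.75, adjusted p = 0.00038 by edgeR). Their part in the values of the members was not tested.

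The 3 members that were lower in WT transitional cells rest on less. Mrps26 had 4.98, 4.17 and 3.79 CPM in transitional and 7.77, 8.02 and 6.62 CPM in follicular cells (-0.80, SE 0.20, adjusted p = 0.011 by edgeR). Mrpl3, which lies near the peptidyl transferase centre, had 4.57, 6.70 and 7.58 and 13.9, 9.07 and 9.48 CPM (-0.79, SE 0.26, adjusted p = 0.04 by edgeR), and without any 1 of 5 libraries (replicate 1 of both follicular and both transitional groups and WT transitional replicate 2) it was not called, with an adjusted p of up to 0.18. Mrps18b gave -0.25, SE 0.09, adjusted p = 0.045 by edgeR and kept its call without WT transitional replicate 2 but not without any 1 of the other 11 libraries (adjusted p up to 0.14). In the same cells 59 of 81 cytosolic ribosomal proteins were lower and 0 higher (median -0.40), 8 of 13 mitochondrially encoded mRNAs were lower and 0 higher, and 6 respiratory chain subunits were higher and 5 lower.

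In Sh3gl1-/- cells 0 members were higher and 2 lower in transitional cells, where 10.4% of all genes were called, 6.71% higher and 3.7% lower. Groups lay apart for 9 members on the higher and 15 on the lower side, where 15.7% and 14.7% of all genes did so. These were Mrpl11 (-0.35, SE 0.08, adjusted p = 0.011 by edgeR), with 38.1, 40.8 and 41.1 CPM in transitional and 50.5, 51.6 and 52.5 CPM in follicular cells, and Mrpl19 (-0.33, SE 0.09, adjusted p = 0.034 by edgeR). Neither was called without transitional Sh3gl1-/- replicate 1 (adjusted p = 0.059 for Mrpl11), and Mrpl19 also not without transitional Sh3gl1-/- replicate 2 or any 1 of the 3 follicular Sh3gl1-/- libraries. Same-numbered transitional and follicular libraries of a genotype deviated together, and with the replicate number as a block 4 members were called, Mrpl54 and Mrpl57 being added as higher. With a block for each number within a genotype 6 were called, with Mrps2, Mrpl54 and Mrpl57 higher and Mrps18b lower beside Mrpl11 and Mrpl19. The count moved between 0 and 6 when 1 library was left out, with 6 without WT follicular replicate 1, 1 without Sh3gl1-/- follicular replicate 3 or transitional replicate 2, and 0 without Sh3gl1-/- transitional replicate 1. For the fits with a block or with 1 library left out the share over all genes is not given, so these counts stand without a background. In these libraries the markers of monocytes and macrophages summed to 397 to 703 CPM in transitional and 121 to 273 CPM in follicular cells, and those of plasma cells to 1146 to 4593 and 176 to 200 CPM, and their part was not tested. The members' median was -0.07 against 0.01 over all genes, while 71 of 81 cytosolic ribosomal proteins and 9 of 13 mitochondrially encoded mRNAs were lower. The difference between the genotypes was called for 0 of 78 members by edgeR, which called 0.0686% of genes (0.0206% higher and 0.048% lower). DESeq2 called it for 5 members, and its share over all genes is not given here. At an unadjusted p under 0.05 by edgeR, 4 members were higher and 6 lower, again without the share over all genes. The values with the lowest p were those of Mrps22 (1.25), Mrpl54 (1.32), Mrpl28 (-0.47) and Mrps11 (-0.58).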

How the data were processed

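RNA of 18 libraries was analysed. Groups and replicate numbers were taken from the labels. The submitters' processing notes name cutadapt 1.9.1, STAR 2.5.2a, RSEM 1.3.0 and GRCm38, whereas the methods name TopHat and Cufflinks. The library kit also differs, a stranded KAPA mRNA kit per the labels and SMART-Seq HT with Nextera XT per the methods. The deposited table holds expected counts that the authors estimated per gene, not normalized for library size, with TPM and FPKM values that the authors scaled to length and library size. FPKM was not used. All 54 columns matched a library, and 0 were left out.

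Expected counts were rounded and tested in R 4.3.3 with edgeR 4.0.16 (TMM, filterByExpr, glmQLFit, glmQLFTest), with Benjamini-Hochberg adjustment over all tested genes and calls at an adjusted p under 0.05. Genotypes were compared within each cell state, and the other comparisons were fitted on 12 libraries with 1 coefficient per group. CPM uses TMM-scaled library sizes. TPM was used for levels between genes. The p-values measure the spread between libraries. The scripts were tested on simulated counts. Depth limits precision for members with few counts, and PCR copies were not identified.

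The members and the lists of related genes were chosen with earlier results of these data known. Members named in the text are a list by role, up to 5 called members per direction and comparison with the lowest adjusted p and groups without overlap, the 2 per direction with the lowest p where none was called, and the 3 highest and 3 lowest by TPM. Genes named by another choice are marked.

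Same-numbered libraries were checked for pairing by the correlation of their deviations from group means over 15117 genes. It was 0.14, 0.14 and 0.22 between WT follicular and cultured libraries, 0.12, 0.08 and 0.03 in Sh3gl1-/- cells, 0.10, 0.14 and 0.24 between WT follicular and transitional libraries, and 0.20, 0.26 and 0.11 in Sh3gl1-/- cells. Between genotypes it was -0.09 to 0.10. Each follicular library of either genotype correlated best with the transitional and with the cultured library of its own number. The values were lowest for the Sh3gl1-/- cultured libraries, where a pairing is least clear. The main fits used no block. Alternatives were DESeq2 1.42.0, median-ratio (RLE) size factors, library totals, no filter, a replicate block, each library left out and, added after the data were seen, a block within genotype. Positions are from GENCODE M21 and promoters from RefSeq (GRCm38.p6).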

Additional observations from a re-analysis of the deposited data

How the results depend on the processing

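Calls of 0 members between the genotypes in follicular cells, ex vivo and cultured, held in every alternative. In transitional cells 4 members were called by DESeq2, 1 with RLE size factors, 4 with all genes of at least 1 count, and 0 to 1 with 1 library left out. The difference in CD40L response was called for 2 members with all genes of at least 1 count, and the difference between transitional and follicular cells for 5 by DESeq2 and 3 with all genes. Of transitional against follicular Sh3gl1-/- cells, 10 members were called by DESeq2 and 0 to 6 with 1 library left out. The share called over all genes is not given for these alternatives, so their counts stand without a background. After CD40L 61 to 69 members were called in WT and 55 to 62 in Sh3gl1-/- cells, and 64 to 68 and 50 to 61 with 1 library left out. Scaling by library totals alone lowered the WT median of the members to 0.57, with the median of all genes at -0.22 in place of -0.08, and turned the median of transitional against follicular WT cells to -0.02. The cause of these moves was not tested.

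With the replicate number as a block, 4 members were called between transitional and follicular Sh3gl1-/- cells, and 6 with a block within genotype, added after the data were seen. For these fits too the share over all genes is not given. After CD40L the block took the calls of Mrpl44 in WT and of Mrps9 and Mrps18c in Sh3gl1-/- cells (for Mrps18c adjusted p = 0.059 and 0.078 by edgeR) and gave one to Mrpl38 in WT cells. Within genotype Mrps2 in WT and Mrps15 in Sh3gl1-/- cells lost theirs as well. The block moved no other count of calls by over 1.5 times. Libraries of the 2 genotypes share only a number.

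Values near 0 turned sign. The response of Mrpl23 in Sh3gl1-/- cells was -0.013 with library totals and -0.053 to 0.20 with 1 library left out. Such ranges were -0.17 to 0.15 for Mrpl3 in Sh3gl1-/- and -0.012 to 0.41 in WT cells, -0.25 to 0.13 for Mrpl57 in WT cells, and -0.10 to 0.40 and -0.10 to 0.69 for Mrps30 in Sh3gl1-/- and WT cells. Of 57 calls of named members, 45 were kept whichever library was left out. With 3 libraries a group and as few as 13 counts, small changes in the least expressed members could not be detected at this depth.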

Other observations

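Of the 78 members, 12 had a residual SD of log2 CPM over 0.3, where the median member had 0.13. Mrpl38, Mrpl54, Mrps2 and Mrps22 were picked after their values were seen. Mrpl38 had 21.0, 7.53 and 8.20 CPM in the WT follicular libraries, 19.5, 31.2 and 17.7 CPM in the WT cultured ones and 48.2, 31.1 and 26.9 CPM in the Sh3gl1-/- cultured ones. Mrpl54 had 29.9, 15.2 and 13.8, 23.0, 42.6 and 29.7 and 58.2, 48.5 and 33.1 CPM in the same groups, and Mrps2 22.9, 9.32 and 11.5, 17.04, 31.9 and 26.2 and 32.5, 27.1 and 25.8 CPM. Mrps22 had 12.7, 8.46 and 7.37 CPM in WT and 6.23, 5.48 and 7.22 CPM in Sh3gl1-/- follicular cells, and 15.5, 32.4 and 25.6 and 35.4, 27.2 and 23.5 CPM after culture. In WT follicular cells replicate 1 was the highest library for all 4 members. In transitional cells Mrps22 had 6.42, 5.66 and 7.26 CPM in WT and 9.19, 10.8 and 9.98 CPM in Sh3gl1-/- libraries, which do not overlap, while in follicular cells the Sh3gl1-/- libraries were all below the WT ones.

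Mrpl23-ps1, the pseudogene with more counts than Mrpl23, gave a log2 fold change of 0.74 (adjusted p = 3.8e-05 by edgeR) after CD40L in WT cells and 0.27 in Sh3gl1-/- cells, where Mrpl23 gave 0.62 and 0.02.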
